A study of Mus musculus with 8 samples.

Results

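Npm1, Eif3h, Cops9, Pde6h, Naa10, Cyb5a, Fth1, Ypel3 and Gmppa are 9 genes whose transcripts held well-ranked N6-methyladenosine (m6A) peaks in PTC-treated mouse T cells and no peak in control T cells. They were chosen from the deposited peak lists by name, for a low false discovery rate (FDR) in the PTC list and for having no line in the control list. They are 9 of the 1023 genes with peaks in the PTC list only, out of 12413 genes with a peak in either list (8.24%). Because these values chose the genes, their presence in 1 list only is a description and was not tested.

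The cells were primary T cells of the mouse, kept in serum-containing medium and either left as control or treated with PTC, an agent that the labels do not describe further, for 24 h. Of the 8 samples, 2 control and 2 PTC samples were immunoprecipitated for m6A, and 2 of each condition were sequenced as input. The labels give no strain, age or T cell subset, and they do not tell if each sample is its own animal or culture. The authors deposited 1 list per condition, so no value per sample exists here, the read depth is unknown and no test between the conditions was possible. The PTC list held 23368 peaks in 10859 genes and the control list 29586 peaks in 11390 genes. All 12 T cell markers looked up, such as Cd3e, Cd4, Cd8a and Lck, had peaks in both lists. A peak does not establish the identity of the cells. Of 4 B cell markers 3 were in both lists, Cd79b and Ms4a1 with strong peaks (−log10 FDR 272 and 134 in PTC). The T cell markers Cd4 and Cd8a had 13.4 and 50.2 in PTC, and Cd2 and Cd28 204 and 231. Of 5 myeloid markers 2 were in both and Tyrobp was in the PTC list only (11.4). Of 4 erythroid markers Alas2 was in both, and Hbb-bs (1.91) and Klf1 (2.65) were in the PTC list only. The part of other cells in the peaks below was not tested.

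m6A is a methyl group that a nuclear complex built on METTL3 and METTL14 places on adenosines of messenger RNA, mostly within the consensus DRACH. It is known to concentrate around stop codons and in 3' UTRs, where reader proteins bind it and alter the decay or translation of the transcript. In the assay used here, fragmented RNA bound by an antibody to m6A is compared with input RNA, and a peak is a stretch of exon with more bound than input reads. The 9 genes have no shared pathway. Npm1 encodes nucleophosmin, a nucleolar histone and ribosome chaperone, and Eif3h a subunit of the translation initiation factor eIF3. Cops9 encodes a subunit of the COP9 signalosome, which removes the ubiquitin-like protein NEDD8 from cullin ubiquitin ligases, and Naa10 the catalytic subunit of the NatA N-terminal acetyltransferase. Cyb5a encodes cytochrome b5, an electron carrier of the endoplasmic reticulum, and Fth1 the ferritin heavy chain, which oxidises and stores iron. Gmppa encodes a regulatory subunit of GDP-mannose pyrophosphorylase, Ypel3 a Yippee-like protein linked to growth arrest, and Pde6h the inhibitory subunit of the cone photoreceptor phosphodiesterase.

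DRACH sites close to the stop codon are shown for the 7 genes whose strongest peak covered one, because these peaks are described by their position at the stop codon below. DRACH stands for A, G or T, then A or G, then A, C, and last A, C or T, and it was searched on the transcript strand only. Capitals mark the 5 bases of the site in a window of 21 nt, written 5′ to 3′ from GENCODE M21 transcripts on GRCm38.
Npm1: aagggtttAAACAgtttgaaa
Eif3h: cgttgagtAGACAgactgttg
Cops9: gtctctcgGGACAcgaccagc
Naa10: gcctcctaGAACCtgccccac
Fth1: agctaagcTGACTtccccaaa
Ypel3: gctgggacTGACCtagctcct
Gmppa: ggcccccaGGACTcccgccca
These windows lie on the minus strand at chr11:33152790-33152810 (Npm1), chr15:51786685-51786705 (Eif3h), chr1:92637302-92637322 (Cops9) and chrX:73916947-73916967 (Naa10). On the plus strand they lie at chr19:9984937-9984957 (Fth1), chr7:126780106-126780126 (Ypel3) and chr1:75443016-75443036 (Gmppa). Counted from the last base of the stop codon as 0, the A of the site was at 14 in Npm1, 33 in Eif3h, 54 in Cops9, 2 in Naa10, 5 in Fth1 and 25 in Gmppa. In Ypel3 it was at 0, so that this A is itself the last base of the stop codon. A second site of Ypel3, 4 bases upstream, was GGACT, the form of the consensus most often reported as methylated.
Ypel3 second site: aacggctgGGACTgacctagc
It lies at chr7:126780102-126780122 and its A at −4. A match in these windows is a description of the sequence and does not show that the base was methylated.

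The strongest peaks of the 9 genes were of moderate rank within the PTC list and of low fold enrichment. Fold enrichment is the authors' linear ratio, read here as bound over input, and the FDR is also theirs. Values of a PTC and a control peak set side by side show that each list holds a peak and how strong it was there, and no change is read from them. Npm1 had the strongest peak, with a −log10 FDR of 37.2 and a fold enrichment of 1.52, and 85.8% of PTC peaks were weaker by FDR. Next came Eif3h (26.4, fold 2.62), Cops9 (21.8, fold 2.05), Pde6h (21.6, fold 1.48) and Naa10 (20.9, fold 3.37). Cyb5a had a −log10 FDR of 19.0 with a fold of 2.46, Fth1 16.0 with 1.15, Ypel3 15.1 with 2.58 and Gmppa 14.8 with 2.57. The weakest of the 9, in Gmppa, still ranked above 69.8% of PTC peaks.

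All 9 fold values lay below the median of the whole PTC list, which was 3.66, and the median of the 9 was 2.46. The 3762 PTC peaks in the same range of −log10 FDR had a median fold of 4.21 (quartiles 3.02 and 5.95). Only 43 of those peaks (1.14%) had a fold at or below that of Npm1, among them the peaks of Npm1, Pde6h and Fth1. The fold of Fth1 was the lowest of the 9, and 2 of the 23368 PTC peaks had a lower one. Low folds were not particular to the 9 genes. Of the other PTC-only genes that reached the −log10 FDR of Gmppa, only Rps25-ps1 (4.2) had a fold above 3.66 in its strongest peak. Examples of the rest are mt-Nd5 (1.8) and Rpl41 (1.21). Of the 3762 peaks of comparable strength 3735 belonged to genes with a control peak, and 27 (0.718%), the 9 chosen ones included, did not. At a −log10 FDR of 5 or more in each list 910 genes were PTC-only (9.86% of 9226), and the 9 are among them by the way they were chosen. At a fold of 4 or more only Gmppa was, through its weak peaks, among 1508 (16% of 9421). Without regard to strength, 21.2% of PTC peaks shared no exon base with a control peak on their strand.

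**Figure D1:**
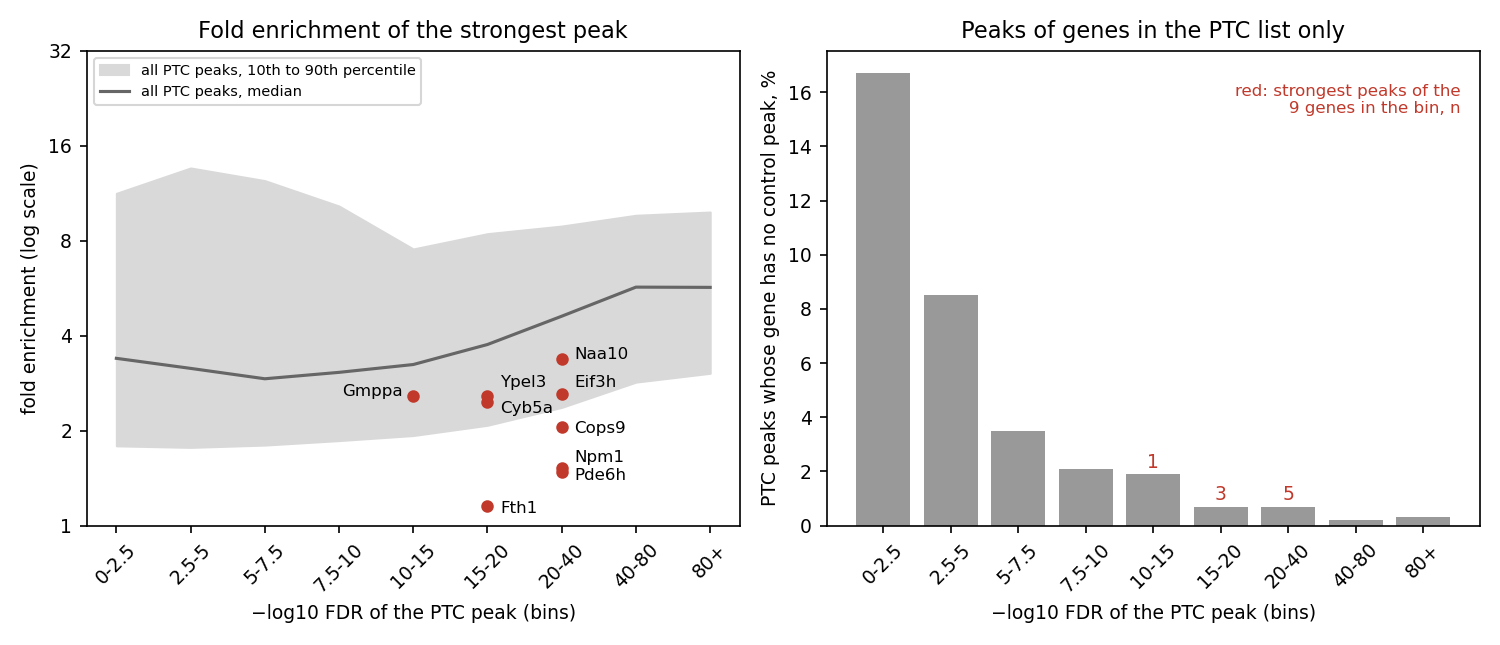
Left, fold enrichment (log scale) of the strongest peak of each of the 9 genes (red points) over bins of −log10 FDR, with the median (line) and the 10th to 90th percentile (band) of all PTC peaks. Right, the percent of PTC peaks whose gene has no control peak in each bin, with the number of the 9 peaks in red. All 9 points lie under the median line, Cops9, Npm1, Pde6h and Fth1 lie under the band, and the bins that hold the 9 peaks are among those with few PTC-only peaks.

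Seen from the threshold, 34 PTC-only genes reached the −log10 FDR of Gmppa. Besides the 9 these were 15 pseudogenes, 2 mitochondrially encoded genes, 3 ribosomal protein or histone genes, 4 unnamed gene models and Nme2. Nme2, a nucleoside diphosphate kinase gene, had the same −log10 FDR of 14.8 as Gmppa at the precision given here. It follows Gmppa in rank and is not among the 9. Histone, cytosolic ribosomal protein, mitochondrially encoded and immunoglobulin V genes, pseudogenes and unnamed models were then left out. The genes that follow were Mrpl35 (14.0), Mfsd4a (13.7), Snrnp27 (13.4), Clec4a3 (12.7) and Ms4a6d (12.1).

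Most of the peaks lay across a stop codon. In 7 of the 9 genes the strongest peak held a whole stop codon of a coding transcript, the exceptions being Cyb5a and Pde6h. Among all 20957 PTC peaks of coding genes 26.1% held one, and among the 6487 at least as strong as the Gmppa peak, 50.8% did. Among the 516 that had the width (151 to 300 nt) and strength of the 9 peaks it was 21.5% (95% interval 18.0 to 25.3%). Intervals are exact Clopper-Pearson intervals and cover counting error only. The same 7 peaks had their midpoint within 100 nt of the last base of a stop codon, against 12.6% of PTC peaks with a midpoint in a coding transcript and 18.6% (15.3 to 22.3%) of those of like width and strength. These measures did not enter the choice of the genes. Since the 9 genes are few and were picked from 1 list, the counts are given without a test.

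**Figure D2:**
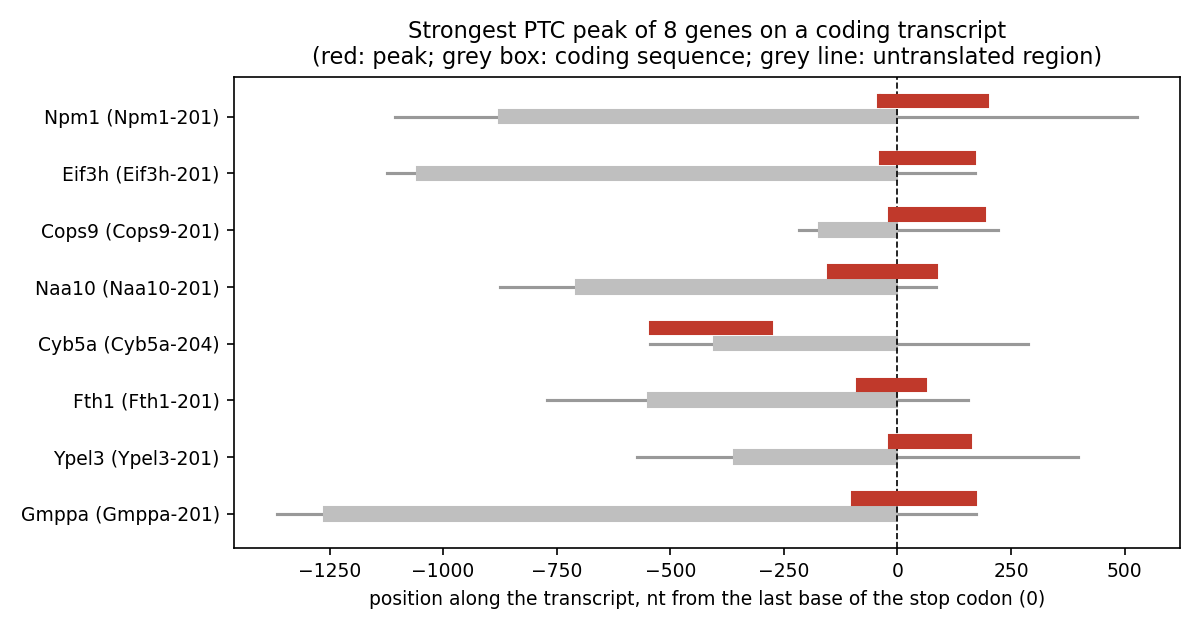
Strongest PTC peak (red) of 8 of the genes along the coding transcript named on the left, in nt from the last base of the stop codon (0). Grey boxes are coding sequence and grey lines untranslated regions. The peaks of 7 genes cross position 0, and that of Cyb5a starts at the first base of Cyb5a-204, a transcript that begins inside the gene. Pde6h is not drawn, because none of its transcripts holds all 4 blocks of its peak.

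In Npm1 the peak ran over chr11:33152616-33153989 on the minus strand in 2 blocks of 237 and 4 bases. The long block covered the end of the coding sequence and the start of the 3' UTR, and the 4 bases belong to the exon before. The midpoint lay 78 nt after the stop codon, and the peak ended 329 nt before the end of the transcript Npm1-201. Its sequence was the poorest in G and C of the 8 strongest peaks that a single transcript holds (36.5%, median of the PTC list 48.8%) and held 3 DRACH sites, none of them with GGAC.

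The Eif3h peak, chr15:51786558-51786767 on the minus strand, was 210 nt wide. It began in the last codons and ran to the last base of the gene, with its midpoint 66 nt after the stop codon. Cops9, whose messenger RNA is short, had a peak of 211 nt at chr1:92637175-92637385 on the minus strand. It covered nearly the whole 3' UTR, with the midpoint 86 nt after the stop codon and its end 30 nt from the end of the gene. In Ypel3 the peak of 180 nt at chr7:126780097-126780276 had its midpoint 71 nt after the stop codon and left 238 nt of 3' UTR uncovered.

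The peaks of Naa10 and Fth1 were centred just inside the coding sequence. The Naa10 peak, 240 nt at chrX:73916873-73917112 on the minus strand, ended at the last base of the gene and had its midpoint at −33 nt. It held 6 DRACH sites, 2 of them with GGAC. The Fth1 peak was the narrowest of the 9, with 151 nt at chr19:9984853-9985003 and a midpoint at −14 nt. The iron-responsive element of Fth1, which controls its translation, lies in the 5' UTR and hence outside this peak.

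Gmppa was the only one of the 9 genes with more than 1 peak. The strongest, 300 nt at chr1:75442880-75443179, ran to the last base of the gene. Of its bases, 274 lay in exons of the coding transcript Gmppa-201, where the midpoint was 29 nt after the stop codon, and the other 26 lay outside that transcript's exons. The retained-intron transcript Gmppa-203 holds the whole peak. A weak peak at chr1:75442551-75442730 (−log10 FDR 2.58, fold 6.78) had 118 of its 180 bases outside the exons of Gmppa-201 and was also held by Gmppa-203 alone. The third peak, at chr1:75435990-75436169 (3.47, fold 4.89), began 60 nt from the start of the gene, in the 5' UTR of the transcript Gmppa-208. Only Gmppa-208 and Gmppa-212 hold it whole, and 158 of its 180 bases lay outside the exons of Gmppa-201. The weak peaks thus carried the higher folds, and the peak with the lowest FDR the lowest fold.

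Cyb5a differed from these genes in position. Its peak of 269 nt at chr18:84851338-84851606 started at the first base of the coding transcript Cyb5a-204 and covered the 5' UTR and the first part of the coding sequence, with the midpoint at −411 nt from the stop codon. It held 5 DRACH sites, none with GGAC. Cyb5a-204 begins inside the gene, and the peak lay 12634 nt from the 5' end of the gene and 28265 nt from its 3' end. Of the 8 annotated transcripts only Cyb5a-204 holds the whole peak. The others with exon bases of the peak, Cyb5a-201, Cyb5a-203 and Cyb5a-208, are annotated as nonsense-mediated decay or retained-intron transcripts. Neither list held another peak of Cyb5a.

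All 8 strongest peaks that a single transcript holds contained at least 1 DRACH site, from 3 to 6, as did 97.7% of all PTC peaks of 151 to 300 nt. GGACT, 1 of the DRACH words, was in 2 of the 8, Ypel3 and Gmppa, against 24.4% (23.5 to 25.3%) of PTC peaks of that width. Among PTC peaks of any width at least as strong as the Gmppa peak, 61.5% held GGACT. The median density was 2.18 DRACH sites per 100 nt in the 8 peaks and 2.09 in all PTC peaks. The last base of the peak lay within 100 nt of the 3' end of the transcript in 5 of 8 (Eif3h, Cops9, Naa10, Fth1 and Gmppa), against 13.8% of all PTC peaks and 19.8% of those at least as strong as the Gmppa peak.

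Pde6h stood apart from the others in the make-up of its peak. The peak, chr6:136923892-136959302 on the plus strand, joined 4 blocks of 16, 60, 57 and 77 bases spread over 35411 nt, and none of the 4 annotated Pde6h transcripts holds them all. Pde6h is a gene of cone photoreceptors, and the cone markers Gnat2, Cnga3 and Arr3 had no peak in either list. Blocks 1 and 2, which belong to the first exons of the transcript Pde6h-204 alone, lay within the last exon of Arhgdib on the other strand. Arhgdib encodes a GDP-dissociation inhibitor of small GTPases that is abundant in lymphocytes.

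Block 2 (60 bases) filled an exon of Pde6h-204 and lay from −89 to −30 nt of the Arhgdib stop codon, in Arhgdib coding sequence. Block 1 (16 bases) lay 220 to 235 nt after that stop codon, in its 3' UTR. Together 76 of the 210 bases of the Pde6h peak were exonic in Arhgdib. The other 134, in blocks 3 and 4, lay beyond the Arhgdib gene in the coding transcript Pde6h-202. Whether the libraries kept the strand of the RNA is not given in the sources used here. If they did not, reads of Arhgdib and Pde6h over these 76 bases cannot be told apart.

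Arhgdib itself had peaks in both lists, with 3 in the PTC list and 2 in the control list. The PTC peak at chr6:136924074-136929624 (−log10 FDR 76.2, fold 1.81) reached across the Arhgdib stop codon and covered all 60 bases of block 2. The matching control peak, chr6:136924224-136929624 (67.2, fold 1.72), stopped short of the stop codon and ended 7 nt from block 2. A second pair of Arhgdib peaks, farther upstream, was in both lists (77.9 for PTC and 47.0 for control), and a PTC peak in the 3' UTR (10.3, fold 1.49) had no control partner. The stretch of Arhgdib under block 2 was inside a peak in the PTC list and outside one in the control list. Block 1 was outside the Arhgdib peaks of both lists, 26 nt from the nearest in PTC and 316 nt in control. The source of the reads in the Pde6h peak was not tested. Of all PTC peaks 1655 (7.08%) shared bases with a PTC peak on the other strand.

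**Figure D3:**
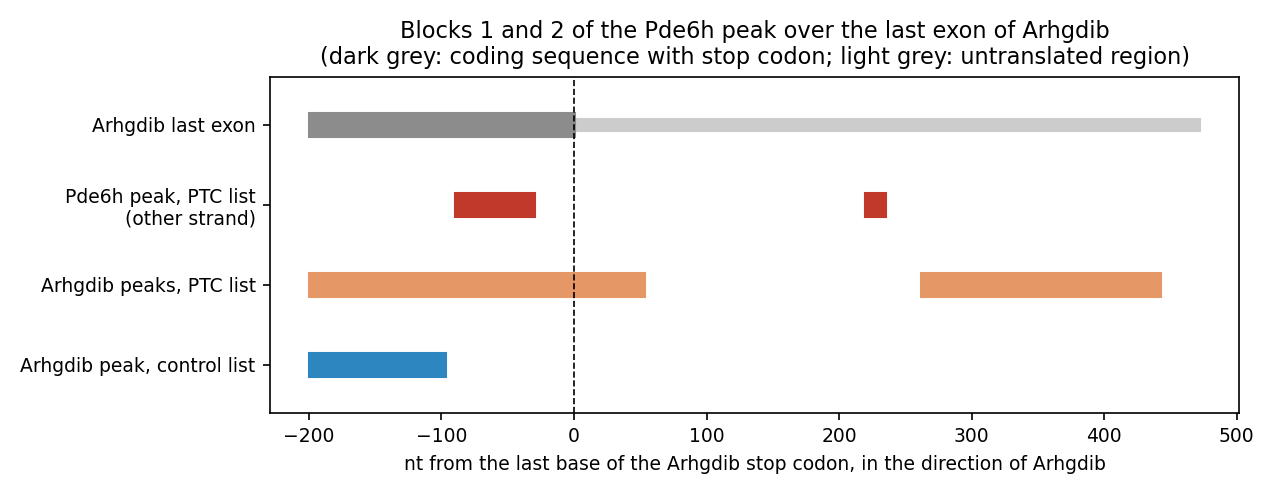
Blocks 1 and 2 of the Pde6h peak (red) over the last exon of Arhgdib, with the Arhgdib peaks of the PTC list (orange) and of the control list (blue), in nt from the last base of the Arhgdib stop codon. Block 2 is inside the PTC peak of Arhgdib and 7 nt away from its control peak. Block 1 is outside the Arhgdib peaks of both lists.

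Around the other genes both lists were mostly empty within 10 kb. Within 50 kb, on either strand, 7 of the 9 genes had a control peak of another gene. None of the 11 peaks shared an exon base with a control peak of any gene on either strand. For control peaks of the same gene this follows from how the genes were chosen. Of all PTC peaks 78.8% were overlapped by a control peak on their strand. Among those in the strength range of the 9 strongest peaks it was 98.4%. Within 10 kb of the gene body a control peak of another gene was listed for 3 of the 9, always on the other strand. A control peak of Arhgap4, on the strand of Naa10, lay just outside this window at 10082 nt. For Pde6h it was Arhgdib, for Ypel3 a peak of the phosphatase subunit gene Ppp4c 7087 nt away (4.63, fold 2.1), and for Npm1 a peak of the gene model Gm12115 9801 nt away (3.52, fold 1.48). Ppp4c and Gm12115 had peaks in the PTC list too (3.79 and 7.7 for those nearest). Of the 18 coding genes that flank the 9 genes most closely, 14 had no peak in either list, and Trps1, Utp23, L1cam and Incenp had peaks in both. How often other listed genes have such neighbours was not counted. These counts are therefore not read as particular to the 9 genes.

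Naa10 had a neighbour with the opposite listing. The annotated body of Arhgap4, which encodes a GTPase-activating protein and lies downstream on the same strand, reaches over the Naa10 peak through a retained-intron transcript. None of the 240 bases of the Naa10 peak is exonic in Arhgap4. Arhgap4 had 3 peaks in the control list, the strongest at chrX:73904426-73906790 (13.3, fold 3.03) and 10082 nt from the Naa10 gene, and none in the PTC list. The next gene of the control list on the other side, Hcfc1, had its nearest control peak 22105 nt away (26.7, fold 2.36) and its nearest PTC peak 21356 nt away (3.19, fold 1.89).

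Similar sequence elsewhere was found for 2 genes. Of annotated transcripts, 2 processed pseudogenes matched the Naa10 peak, Gm14274 with 96.8% identity over 154 nt and Gm5214 with 90.7% over 108 nt, and neither had a peak in either list. Fth-ps2, a processed pseudogene of ferritin, matched the Fth1 peak with 90.9% identity over 88 nt. It had 1 weak peak in the PTC list (3.22, fold 7.15) and none in the control list. The assignment of reads between Naa10 or Fth1 and these copies is uncertain. For the other genes no annotated transcript of another locus matched the peak over 50 nt or more at 90% identity. Unannotated copies were not searched.

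Partners of these genes were counted in the same way. Of 80 other genes of the same complexes, families or pathways 62 had a peak, 52 in both lists, 3 in the PTC list only and 7 in the control list only. The 3 were Eif3l, Gps1 and Dpm1, with −log10 FDR of 8.55, 3.99 and 4.46. Of all 12413 listed genes 9836 were in both lists, 8.24% were in the PTC list only and 12.5% in the control list only.

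Among nucleolar genes, Ncl, which encodes nucleolin, the box C/D snoRNP genes Nop56 and Nop58, Nolc1 and the helicase gene Ddx21 had peaks in both lists. The Npm1 relatives Npm2 and Npm3 and the methyltransferase gene Fbl had none. Ncl had 8 PTC and 9 control peaks, and each of its 8 PTC peaks was overlapped by a control peak. Of the 13 other eIF3 genes 7 were in both lists, among them Eif3a with 4 peaks in each (strongest 296 in PTC and 229 in control). Eif3l was in the PTC list only, Eif3d (6.29) and Eif3e (3.4) were in the control list only, and Eif3f, Eif3k and Eif3m in neither. Eif3f, which encodes the other MPN-domain subunit of eIF3 beside Eif3h, thus had no peak.

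Each of the 9 other COP9 signalosome genes was listed, 6 in both conditions. Cops5, the catalytic subunit gene, held 4 PTC and 2 control peaks (strongest 16.1 and 16.5), and Cops2 held 3 and 4. Gps1 was in the PTC list only, and Cops7a (4.22) and Cops7b (5.45) were in the control list only. The strongest PTC peaks of Cops3, Cops5 and Cops6 had their midpoints at 67, 50 and −17 nt from a stop codon, beside 86 nt for Cops9. Those of Cops4, Cops8, Cops2 and Gps1 lay farther away, at 126, 178, 220 and −528 nt. Of these genes all but Gps1 also had control peaks. Of the acetyltransferase genes 11 of 13 were in both lists. Naa15, the auxiliary subunit gene of NatA that binds Naa10, held 3 PTC and 10 control peaks (83.2 and 85.2). Naa16, its paralog, was in the control list only (7.01), and Naa11, the paralog of Naa10, had no peak.

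Ferritin light chain, Ftl1, had no peak in either list, nor did mitochondrial ferritin, Ftmt. Other iron genes were in both lists: the transferrin receptor gene Tfrc with 7 PTC and 6 control peaks, the ferroportin gene Slc40a1, the iron-regulatory protein genes Aco1 and Ireb2, Ncoa4, the receptor for ferritin breakdown, Fbxl5, Pcbp1 and Pcbp2. The iron transporter gene Slc11a2 was in the control list only (3.24). Of the cytochrome b5 group 6 of 8 were in both lists, including the mitochondrial form Cyb5b with 5 peaks in each and the reductase genes Cyb5r1, Cyb5r3 and Cyb5r4, and Cyb5d1 was in the control list only (4.54).

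Ypel5 (30.2 in PTC, 30.4 in control) and Ypel1 (3.44 and 4.03) were in both lists, and Ypel2 and Ypel4 in neither. Gmppb, the catalytic partner of Gmppa, was in both lists (29.0 and 39.9), with its PTC midpoint 72 nt after a stop codon. So were Pmm1, Pmm2, Gmds, Tsta3 and Dpm2, while the dolichol-phosphate-mannose synthase gene Dpm1 was in the PTC list only. Of the other phosphodiesterase 6 genes Pde6d, which is expressed widely and acts in trafficking of prenylated proteins, had 2 peaks in each list, and Pde6a, Pde6b, Pde6c and Pde6g had none.

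**Figure D4:**
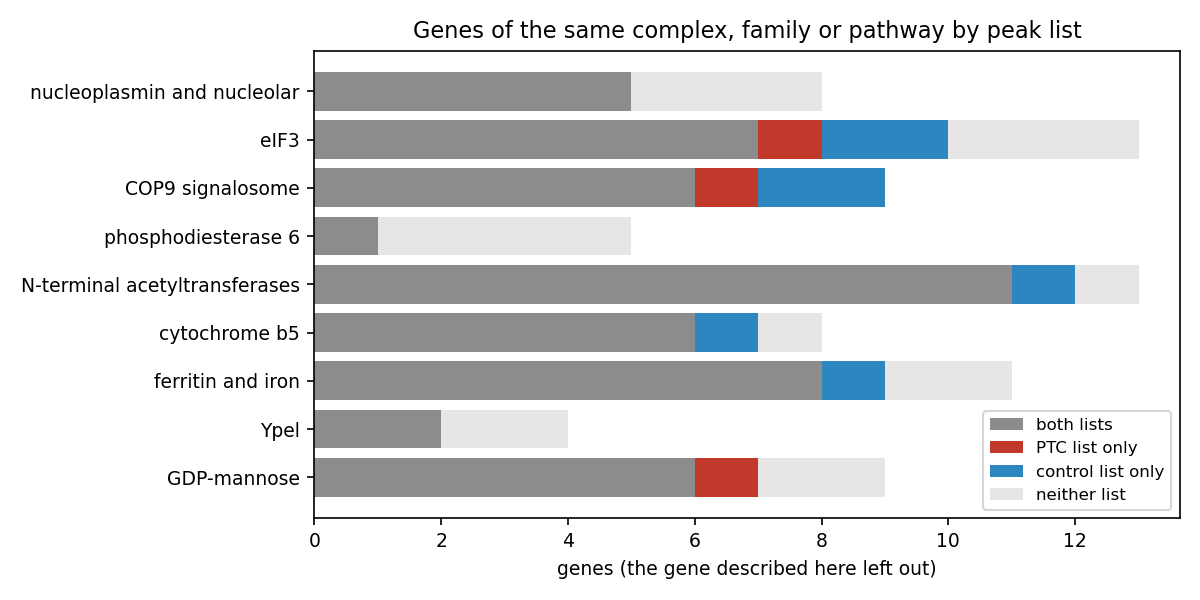
Number of genes of the same complex, family or pathway as each of the 9 genes (the 9 left out) with peaks in both lists (dark grey), the PTC list only (red), the control list only (blue) or neither (light grey). Across the 9 groups 52 genes are in both lists, 3 in the PTC list only and 7 in the control list only.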

How the data were processed

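m6A immunoprecipitates and inputs of mouse primary T cells (8 samples, 4 groups of 2, grouped by title) were deposited by the authors as 1 peak list per condition. BWA 0.7.12, MACS2 2.1.0 and the build GRCm39 are named, without a role, per the submitters' processing notes. Caller, threshold, strandedness and pooling are unstated in the sources used here. Per the file headers each peak has exon blocks, a fold enrichment (a linear ratio), a p-value, and log10 p and log10 FDR (scores without a fixed range). Of PTC peaks 99.81% and of control peaks 99.85% lay inside the same gene and strand of GENCODE M21, so coordinates are read as GRCm38, from 1. Depth is unknown.

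The genes, lists and families were chosen with earlier results of these data known. Overlap required 1 bp of exon blocks. The midpoint is that of the joined blocks, and stop codon distances use the nearest stop codon of any coding transcript holding it. Copies were sought with BLAST 2.17.0 among annotated transcripts (90% identity, 50 nt). Calculations used Python 3.11.15, pandas 2.3.3 and scipy 1.17.1, and functions were tested on simulated data. Named genes are the 9 genes, their families, neighbours and copies, marker genes and the 6 PTC-only genes next in FDR. The summary table per condition was not used.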

Additional observations from a re-analysis of the deposited data

How the results depend on the processing

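The number of PTC-only genes was 1023, and 910 with −log10 FDR values of 5 or more in each list. It was 1602 with the control list trimmed by FDR to the length of the PTC list. That the 9 genes are among them in each case follows from how they were chosen. At a fold of at least 4 in both lists (1508 genes) only Gmppa was left, through its weak peaks, since the other 8 had no peak of that fold. The share of PTC peaks overlapped by a control peak was 78.8%, and 75.4% with 50% of the shorter peak shared, 83.0% with −log10 FDR values of 5 or more and 61.2% at a fold of at least 4. With introns counted and either strand allowed, an alternative added after the data were seen, 1 peak (Pde6h, over Arhgdib) met a control peak in place of 0. Control peaks of other genes were near 3 genes within 10 kb, 7 within 50 kb and 0 within 10 kb on the same strand. Copies at 95% identity were left for 1 gene (Naa10) in place of 2. GGACT was in 1 of the strongest peaks (Gmppa) when 50 nt on either side of the midpoint were searched, in place of 2. Family genes in the PTC list only numbered 6 with −log10 FDR values of 5 or more (5 in the control list only) and 9 at a fold of at least 4 (10 in the control list only), in place of 3. With the longest coding transcript in place of the nearest stop codon, also added later, 6 of the 9 midpoints were within 100 nt, since no coding transcript holds the whole Gmppa peak. GGACT was in 37.0% of all PTC peaks and in 48.5% of those with −log10 FDR values of 5 or more. The remaining alternatives, of 19 in all, left their values within their interval or 1.5 times. No paired analysis was possible because the lists give no values per sample.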

Other observations

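The share of peaks with a stop codon was also counted in other genes listed in 1 condition. At a −log10 FDR of at least 5, 51 of 121 peaks (42.1%, 95% interval 33.2 to 51.5%) of other coding genes in the PTC list only held a whole stop codon. In coding genes of the control list only it was 43 of 247 (17.4%, 12.9 to 22.7%). Among all peaks of coding genes, of any strength, the shares were 26.1% for PTC and 20.8% (20.4 to 21.3%) for control. These are not matched in strength to the shares above. Among PTC peaks of coding genes at least as strong as the Gmppa peak the share was 50.8%. By midpoints within 100 nt of a stop codon the shares of the genes in 1 list only were 36.2% (27.5 to 45.6%) and 10.8% (7.2 to 15.5%). The intervals cover counting error only, the lists have no replicates, and the difference was not tested.

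The 6 genes next in FDR after Gmppa were taken without histone, cytosolic ribosomal protein, mitochondrially encoded and V genes, pseudogenes and unnamed models. In 3 of the 6 the strongest peak had its midpoint within 100 nt of a stop codon. These were Nme2 (−2 nt, fold 1.59), Mrpl35, a mitochondrial ribosomal protein gene (19 nt, fold 2.27), and Mfsd4a (86 nt, fold 1.93). In Snrnp27, a gene of the spliceosome (−405 nt, fold 6.61), and in the myeloid genes Clec4a3 (172 nt, fold 4.45) and Ms4a6d (303 nt, fold 4) the midpoint lay farther away. No single transcript holds the whole peak of Mfsd4a or of Snrnp27. The folds of Nme2, Mrpl35 and Mfsd4a were below the median of the PTC list (3.66), and those of Snrnp27, Clec4a3 and Ms4a6d above it.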
